A study of Mus musculus with 6 samples.

Results

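The 10 genes described here encode CTCF and the cohesin machinery: Ctcf itself, the ring subunits Smc1a, Smc3 and Rad21, the alternative STAG subunits Stag1 and Stag2, the loader Nipbl, and the release and regulatory factors Wapl, Pds5a and Pds5b. They were grouped by function, with earlier results of these data known. The open chromatin regions assigned to them were those in which a peak had its summit inside the gene body or within 3 kb of one of the gene's annotated starts. This gave 36 of 62876 regions. All 10 genes had a promoter region with a peak in all 6 libraries. The question was whether accessibility at these genes of chromatin looping differed between HADA mice (high-altitude de-acclimatization) and controls.

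The measurement was ATAC-seq, which marks accessible DNA by the insertion of adapters with the transposase Tn5, in murine peripheral blood leukocytes from which red cells had been lysed. The labels and the methods name leukocytes, whereas the results text of the study speaks of mononuclear cells, a fraction that would hold few neutrophils, and promoter peaks of neutrophil genes were present in every library. There were 3 control and 3 HADA libraries. Per the study's methods, the mice were male C57BL/6j animals. HADA mice were kept in a hypobaric chamber that simulates high altitude and were then returned to normal oxygen. No allele or drug distinguished the groups in the labels, and the time of sampling after return, the age at sampling and the number of mice per library were not given in the sources used here for this assay. The cells were not sorted, so each value is an average over a mixture of blood cells, in which fewer cells of a type and less accessibility per cell cannot be told apart.

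Cohesin is a protein ring that holds DNA inside it. NIPBL loads the ring and helps it to extrude loops of DNA, CTCF bound to its motif stops the ring and so sets the ends of many loops, and WAPL with PDS5 proteins releases the ring again. STAG1 and STAG2 are alternative subunits that bind the ring and contact CTCF. The same ring joins sister chromatids in dividing cells. The genes are expressed widely. In lymphocytes the machinery takes part in antigen receptor recombination and class switching, and in lymphocytes and myeloid cells alike in inducible gene expression.

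The promoters of these genes are rich in G, C and CpG dinucleotides. In the 300 bases around the start nearest to the peak summit (250 before and 50 after), G and C made up 57.7 to 76% of bases with a median of 69.5%, against a median of 55% over 67388 starts of protein-coding genes. The number of CpG dinucleotides was 22 to 46 with a median of 34.5, against a median of 10 over the same starts. Those starts were all annotated ones, with or without a peak, whereas the member starts lay at peaks present in all libraries. No comparison with starts at peaks of similar height was made. The 250 bases before the start are shown, 5′ to 3′ on the strand of the gene with CpG in capitals, for Pds5b, whose promoter was the one member promoter with all HADA libraries above all control libraries under both main scalings, and for the ring genes Smc3 and Rad21, which stood high and low among the ring promoters. They were read from GRCm39 at chr5:150596954-150597203 (plus strand), chr19:53588568-53588817 (plus strand) and chr15:51855180-51855429 (minus strand).
Pds5b: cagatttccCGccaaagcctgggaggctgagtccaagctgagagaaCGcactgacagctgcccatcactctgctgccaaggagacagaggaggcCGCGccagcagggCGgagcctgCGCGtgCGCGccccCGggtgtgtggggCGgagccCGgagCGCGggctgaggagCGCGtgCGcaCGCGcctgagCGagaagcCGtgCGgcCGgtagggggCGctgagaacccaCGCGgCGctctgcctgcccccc
Smc3: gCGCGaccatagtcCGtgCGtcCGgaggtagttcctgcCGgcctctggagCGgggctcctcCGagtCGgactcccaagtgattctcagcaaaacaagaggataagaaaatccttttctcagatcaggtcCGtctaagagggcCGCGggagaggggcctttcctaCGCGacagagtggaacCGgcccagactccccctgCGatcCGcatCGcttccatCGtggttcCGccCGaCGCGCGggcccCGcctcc
Rad21: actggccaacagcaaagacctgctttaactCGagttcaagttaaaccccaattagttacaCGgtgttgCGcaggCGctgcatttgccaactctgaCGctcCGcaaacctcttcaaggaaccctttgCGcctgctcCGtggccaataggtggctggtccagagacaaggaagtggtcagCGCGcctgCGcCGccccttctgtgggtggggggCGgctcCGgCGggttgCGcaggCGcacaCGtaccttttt
CpG was spread along all 3 sequences, with 27 in Pds5b, 25 in Smc3 and 18 in Rad21.

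In all, 8 factor motifs were searched on both strands of the 300-base windows. Smc1a held the SP1 letters GGGGCGGGG 206 bases before its start and the CCAAT box letters CCAATCA, on the other strand, 100 bases before it. Nipbl held the ETS letters CCGGAAGT on the other strand 225 bases before its start. The remaining 8 member windows held none of the motifs, which besides these were the CTCF consensus, NRF1 (GCGCATGCG), YY1 (AAGATGGC), CRE (TGACGTCA) and the E-box CACGTG. Over all coding starts, with or without a peak, 12.8% of windows held the SP1 letters, 7.46% the CCAAT box, 4.29% ETS, 1.98% NRF1, 2.75% YY1, 1.97% CRE, 7.59% the E-box and 0.558% the CTCF consensus. No member region held the CTCF consensus within 100 bases of its summit, against 0.859% of all regions.

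The lists held 34045 to 41475 peaks in control and 44044 to 45799 in HADA libraries on the main chromosomes. The background pileup over the genome, which stands for the relative depth of a library, was 1.69 to 2.05 (control) and 1.99 to 2.34 (HADA). Markers of blood cell types moved with the groups. The summed promoter height over background of 6 B cell genes was 28.4 to 182 (control) and 423 to 504 (HADA), with 4 of the 6 genes having a peak in all libraries, and Cd79a and Ebf1 without one in control 3. The sum over 6 T cell genes was 184 to 262 and 290 to 347, with a peak in all libraries for 4 genes and Cd8a at 0 in every library. Cd3d, its largest part, overlapped between groups (114 to 198 and 147 to 199), as did Cd3g and Cd4, while Cd3e and Lck were apart. The sum over 6 NK cell genes was 16.4 to 41.5 and 48.3 to 65.1, but only Nkg7 had a peak in all libraries, and Ncr1 had one in 2 control and no HADA libraries. The sum over 7 red cell and platelet genes was 74.5 to 96.6 (control) and 157 to 189 (HADA), carried mainly by Klf1, with Alas2 and Hba-a1 at 0. The sum over 8 neutrophil genes was 175 to 438 (control) and 84.4 to 144 (HADA), with Camp at 0. Of these genes, Mmp9 overlapped between groups (48.7 to 92.9 and 43.1 to 67.8), and Ly6g and Ltf had a peak in some control libraries and in no HADA library. The sums over monocyte genes (95.9 to 136 and 84.4 to 107) and pan-leukocyte genes (301 to 488 and 389 to 476) overlapped between groups. Among the monocyte genes, Lyz2 (24.8 to 30.8 and 6.16 to 11) and Cx3cr1 (10.2 to 17.2 and 7.69 to 8.54) were lower in all HADA libraries, and Ly6c2 (15.1 to 23.7 and 33.4 to 41.9) and Ccr2 (0 to 4.87 and 6.41 to 14.1) were higher. The 5 genes not of blood were at 0. These shifts are present in the same libraries as all values below, and their part in the results was not tested.

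The height of a promoter is given as the summit pileup, the number of reads or fragments stacked at the tallest base of the peak, divided by the background pileup of the library. Over the 6 libraries, Ctcf had the tallest main promoter with 264 ± 43.7 (SD), followed by Stag1, Smc3, Wapl, Nipbl, Pds5b, Smc1a, Rad21, Stag2 and Pds5a, the lowest with 57.7 ± 15.3. The range was 4.57-fold. Smc3 stood above Wapl and Rad21 above Stag2 in 6 of 6 libraries. The other neighbours in the order were in that order in 3 to 5 libraries, so the order among Ctcf, Stag1 and Smc3, among Wapl, Nipbl, Pds5b, Smc1a and Rad21, and between Stag2 and Pds5a differed between libraries. All summit sequences of these promoters were found once in the genome, and the summit taken for each promoter, 1 per region, lay 7 to 145 bases from the nearest annotated start. Within single libraries it could lie farther, with summits spread over 347 bases at Wapl and 1422 at Pds5a. Starts of other annotated genes lie within 3 kb for Ctcf (Agrp among them), Smc1a (Ribc1), Smc3, Stag2, Nipbl and Wapl, and accessibility there cannot be assigned to the member alone.

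**Figure D1:**
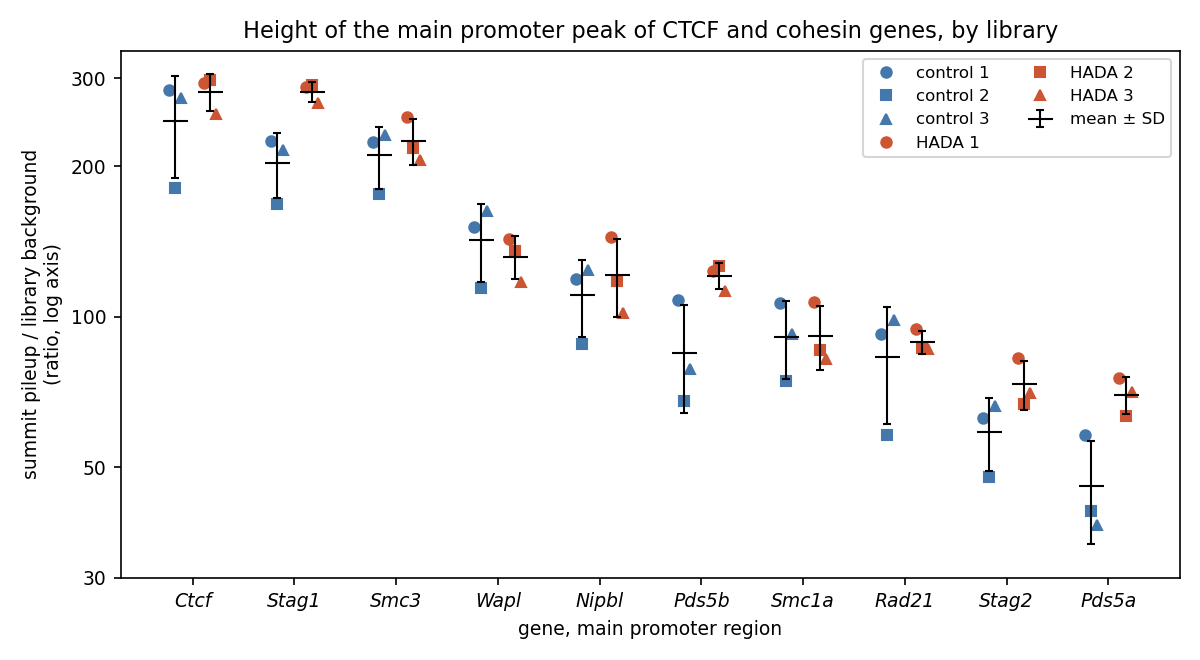
Summit pileup over library background (log axis) of the main promoter region of each gene, ordered by mean height, with 1 point per library (blue control, red HADA, the point shape gives the replicate number) and the mean ± SD of each group. The HADA points lie above all control points for Stag1, Pds5b, Stag2 and Pds5a, and the groups overlap for the other 6 genes.

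Ctcf encodes the zinc finger protein that anchors loops. Its promoter (chr8:106362544-106364062) had summit pileups of 479, 371 and 501 (control) and 687, 593 and 580 (HADA). The height over background was 246 ± 56.9 in control and 282 ± 23.5 in HADA (SD, n = 3 each, exact permutation p = 0.5), and control 1 and control 3 lay within the HADA range, with control 2 lowest. With each library centred on its median shared region, the log2 difference of HADA minus control was −0.16 ± 0.19 (SE), with a limma adjusted p of 0.541. The sign thus turned with the scaling, and the difference was within the spread between libraries under both. This promoter stood between the 98.5 and 99.5 percentile of peak heights of its list in every library.

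The ring is built by SMC1A and SMC3, long coiled-coil ATPases, and RAD21, the kleisin that closes it. The Smc3 promoter (chr19:53588315-53589332) had pileups of 377, 362 and 423 (control) and 588, 434 and 468 (HADA). Over background this was 210 ± 29.7 and 225 ± 23.5, with overlapping groups. The Smc1a promoter (chrX:150798898-150800116) had pileups of 180, 153 and 169 (control) and 250, 171 and 187 (HADA), and 91.2 ± 16.1 and 91.6 ± 13.3 over background, so the group means lay less than 1 SD apart. The Rad21 promoter (chr15:51854153-51855578) had 156, 119 and 180 (control) and 221, 172 and 196 (HADA). Its height over background was 82.9 ± 21.8 and 89.0 ± 4.71, again with overlapping groups. On the centred scale the differences were −0.28 ± 0.18 for Smc3, −0.37 ± 0.17 for Smc1a and −0.24 ± 0.22 for Rad21, with limma adjusted p of 0.246, 0.123 and 0.398. All HADA libraries were below all control libraries for Smc3 and Smc1a on that scale, while over background all 3 differences were positive.

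STAG1 and STAG2 occupy the same place on the ring. The Stag1 promoter peak lay at an internal annotated start (chr9:100524717-100525945, with the gene spanning chr9:100479740-100841428), and had pileups of 380, 346 and 395 (control) and 674, 578 and 608 (HADA). All 3 HADA libraries were above all control libraries in height over background, 282 ± 12.6 against 203 ± 30.4, a ratio of 1.39 (exact permutation p = 0.1, the smallest that 3 libraries against 3 can give). On the centred scale the groups overlapped, with a log2 difference of 0.10 ± 0.17 and a limma adjusted p of 0.641. Stag2 has a pair of promoter regions with a peak in all libraries. The first (chrX:41237636-41238209) had pileups of 106, 98 and 121 (control) and 193, 133 and 160 (HADA), or 58.9 ± 9.82 and 73.2 ± 8.22 over background, a ratio of 1.24 with the groups barely apart (66.1 in the highest control and 66.8 in the lowest HADA library). The second (chrX:41238529-41239839) had 86, 69 and 86 (control) and 166, 122 and 130 (HADA), or 33.6 to 50.9 and 57.2 to 70.9 over background, also with the groups apart. Centred, the differences were −0.06 ± 0.19 and 0.16 ± 0.18, with limma adjusted p of 0.831 and 0.496. Neither Stag2 region differed beyond the spread of the libraries on the centred scale.

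NIPBL loads cohesin and WAPL releases it. The Nipbl promoter (chr15:8472568-8476067) had pileups of 201, 181 and 227 (control) and 338, 235 and 231 (HADA), or 110 ± 19.5 and 121 ± 21.6 over background, with overlapping groups. The Wapl promoter (chr14:34395292-34396649) had pileups of 255, 234 and 298 (control) and 334, 269 and 267 (HADA). Wapl was the one member whose mean height over background was lower in HADA, at 132 ± 13 against 143 ± 25.5, a difference within the spread. On the centred scale Nipbl differed by −0.24 ± 0.20 (limma adjusted p = 0.354) and Wapl by −0.48 ± 0.19, the difference farthest from 0 among the member promoters. All HADA libraries were below all control libraries for Wapl on that scale, and the limma adjusted p was 0.0749, which did not pass 0.05, whereas centring on shared promoters brought Wapl past it.

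PDS5A and PDS5B bind the ring and serve both its release and its protection. The Pds5a promoter (chr5:65854046-65856469), at an internal start, had pileups of 98, 84 and 70 (control) and 176, 126 and 161 (HADA). Over background it was 45.7 ± 10.7 in control and 69.8 ± 6.03 in HADA, the highest ratio of the family at 1.53, with the groups apart. Its summits were spread over 1422 bases, with that of control 3 away from the others, and in control 1 the region was split into shorter peaks, so the libraries were not all measured at 1 place there. The Pds5b promoter (chr5:150596831-150598063) had pileups of 182, 139 and 144 (control) and 289, 252 and 256 (HADA), or 84.7 ± 20.7 and 121 ± 7.35 over background, a ratio of 1.43 with the groups apart. Its summits were within 32 bases of each other in all libraries. The centred differences were 0.25 ± 0.17 for Pds5a and 0.16 ± 0.16 for Pds5b, with limma adjusted p of 0.255 and 0.452. For Pds5b the centred HADA values, 1.65 to 1.71, lay above the control values, 1.34 to 1.65, with control 1 and HADA 1 equal after rounding, so the groups were barely apart. Those of Pds5a overlapped.

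**Figure D2:**
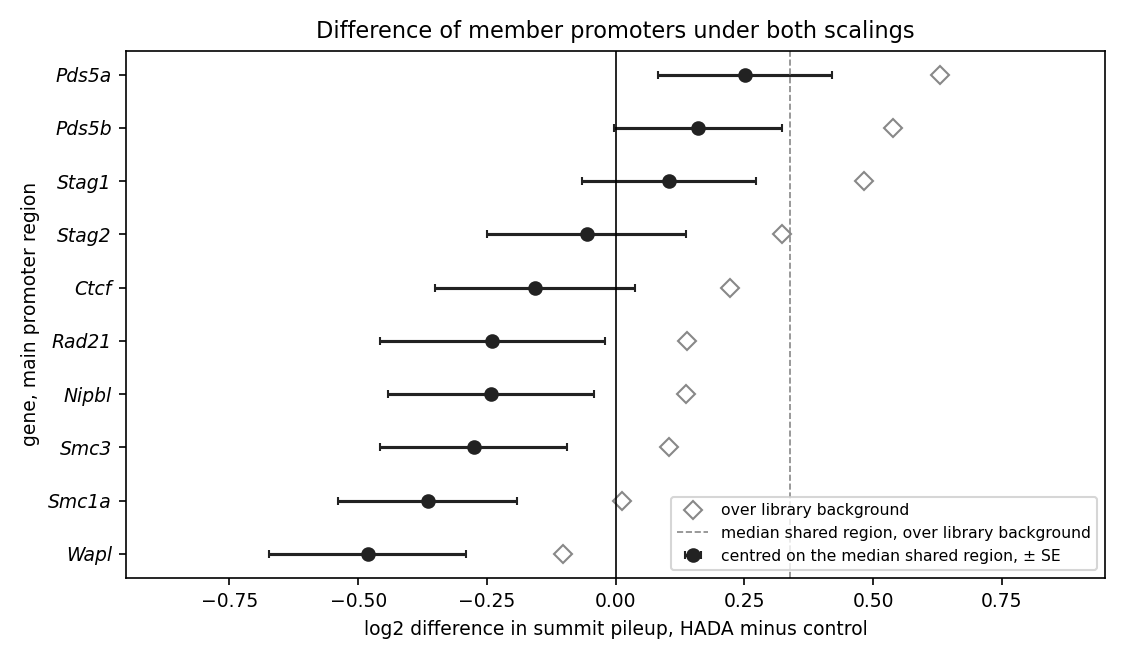
Log2 difference of the main promoter pileup, HADA minus control, for each gene, centred on the median shared region (black points with the SE of the limma fit) and over library background (grey diamonds), with the median shared region over background at 0.34 (dashed line). The black points run from −0.48 for Wapl to 0.25 for Pds5a, and 6 of the 10 genes have opposite signs under the scalings.

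Counted together, no member region was higher in HADA and 1 of 12 tested was lower by the limma test. At an unadjusted p under 0.05 the counts were 0 and 2. The background was high: of all 23970 shared regions, 17.9% were called higher and 24.1% lower in HADA. None of the 10 main promoters was called in either direction, against 13.4% higher and 7.92% lower among the 6704 shared promoter regions at least as tall as the lowest member promoter. Centred on shared promoters instead, a scaling chosen after the data had been seen, limma called 2 of the 10 lower, Smc1a (−0.51) and Wapl (−0.62). The median difference of the main promoters was −0.20, with 3 of 10 positive, against −0.04 over all shared regions, 0.09 over all 14970 shared promoter regions and 0.0017 over those 6704. With SEs of 0.16 to 0.22, a difference that missed the threshold does not show that the groups were equal.

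The sign of the members depended on the scaling. Divided by library background, the median shared region was 0.34 higher in HADA on the log2 scale. On this scale 9 of 10 member promoters had positive differences with a median of 0.18, below that shift, and limma again called none of them, although it called 7432 of all shared regions higher and 4396 lower in place of 4291 and 5769. All HADA libraries were above all control libraries at 4 member promoters and below at none over background, against 42.6% above and 17.4% below over all shared regions, and against 48.2% above and 3.88% below among the 6704 tall promoters. On the centred scale the count was 1 above (Pds5b) and 3 below (Smc1a, Smc3 and Wapl), against 29.3% and 31.2% of all shared regions, and 29.8% and 19.3% of the tall promoters. Counts of 1 to 4 among 10 promoters are too few to set the members apart from these shares.

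Ratios between members do not change when a library is multiplied by 1 factor, though they do under quantile normalization or rank scores. Of 45 pairs of member promoters, the pileup ratio was apart between groups in 24, which is a lower share than the 63.0% of all pairs among the 6704 tall shared promoters. Within the family, Wapl was lower in all HADA libraries relative to 8 of 9 other members, and Smc1a and Smc3 relative to 4 each. Stag1 was higher in all HADA libraries relative to 6 other members, Pds5a and Pds5b relative to 5 each and Stag2 relative to 4. Ctcf was near the middle of the family, higher relative to 1 member and lower relative to 2.

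Among 4 functional pairs, the ratio of loader to releaser, Nipbl to Wapl, was 0.788, 0.774 and 0.762 (control) and 1.01, 0.874 and 0.865 (HADA). All HADA ratios were higher, with means of 0.774 ± 0.0133 and 0.917 ± 0.0824 (SD, n = 3 libraries per group). The exact permutation test gave p = 0.1, with an adjusted p of 0.4 for the family of 4 pairs. The ratio of Stag1 to Stag2 was 3.46 ± 0.171 in control and 3.88 ± 0.432 in HADA, that of Pds5a to Pds5b was 0.543 ± 0.0592 and 0.579 ± 0.0694, and that of Smc1a to Smc3 was 0.433 ± 0.0400 and 0.406 ± 0.0166. These 3 ratios overlapped between groups (exact permutation p = 0.3, 0.5 and 0.5, each with an adjusted p of 0.5). The pairs were chosen after the heights had been seen.

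**Figure D3:**
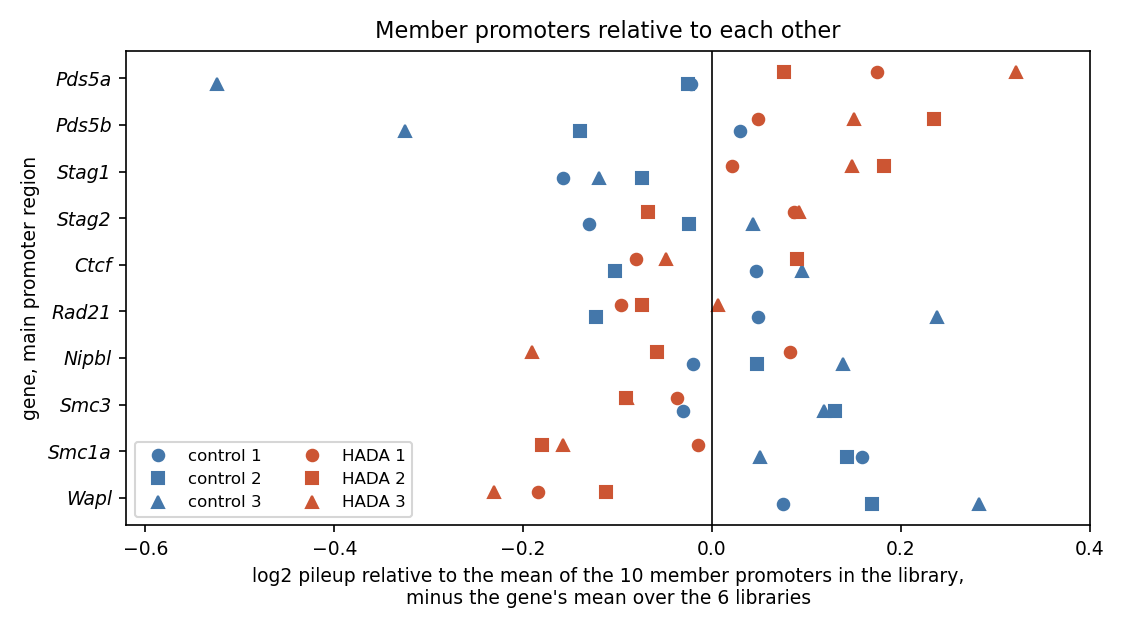
Log2 pileup of each main promoter relative to the mean of the 10 member promoters in the same library, after subtraction of the gene's mean over the 6 libraries, with 1 point per library (blue control, red HADA). Wapl, Smc1a and Smc3 have all HADA points below all control points, Pds5a, Pds5b and Stag1 have them above, and the other 4 genes overlap.

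The promoter peaks were also wider in HADA at 7 of 10 members, with all HADA libraries above all control libraries for Ctcf, Rad21, Smc1a, Smc3, Wapl, Pds5a and Pds5b, and narrower at 0. Among the 6704 tall promoters 46.7% were wider and 2.67% narrower by the same rule. The Pds5b peak was 942 ± 44.0 bases in control and 1208 ± 28.7 in HADA, the Rad21 peak 1110 ± 112 and 1350 ± 94.3, and the Ctcf peak 1323 ± 61.8 and 1474 ± 31.3. The width of a called peak depends on its library's depth and threshold, and for Pds5a the split peak in control 1 enters it. Without Pds5a, 6 of 9 members were wider in all HADA libraries.

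Beyond the main promoters the members had 26 regions, of which 23 lay in introns. These were mostly low and irregular: 11 were found in 1 library, 13 in 2 to 5 and 2 in all 6, with pileups of 7 to 166 and a median of 15. There were 5 regions found only in control libraries, 12 only in HADA libraries and 9 in both. Of the 24 member regions missing from at least 1 library, 12 thus had peaks in HADA libraries only and 5 in control libraries only, where the shares over all 38906 such regions were 34.2% and 25.0% and the HADA lists were the longer ones. The number of peaks at the members as a whole was 25, 19 and 17 (control) and 21, 20 and 26 (HADA). Per 10000 peaks of the library this was 5.21 ± 0.733 in control and 4.98 ± 0.609 in HADA (n = 3 each, exact permutation p = 0.6), and the groups overlapped. Stag1, the longest gene at 361.7 kb, had the most regions with 8, and Ctcf, Rad21, Smc1a, Smc3 and Pds5a had 2 each.

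**Figure D4:**
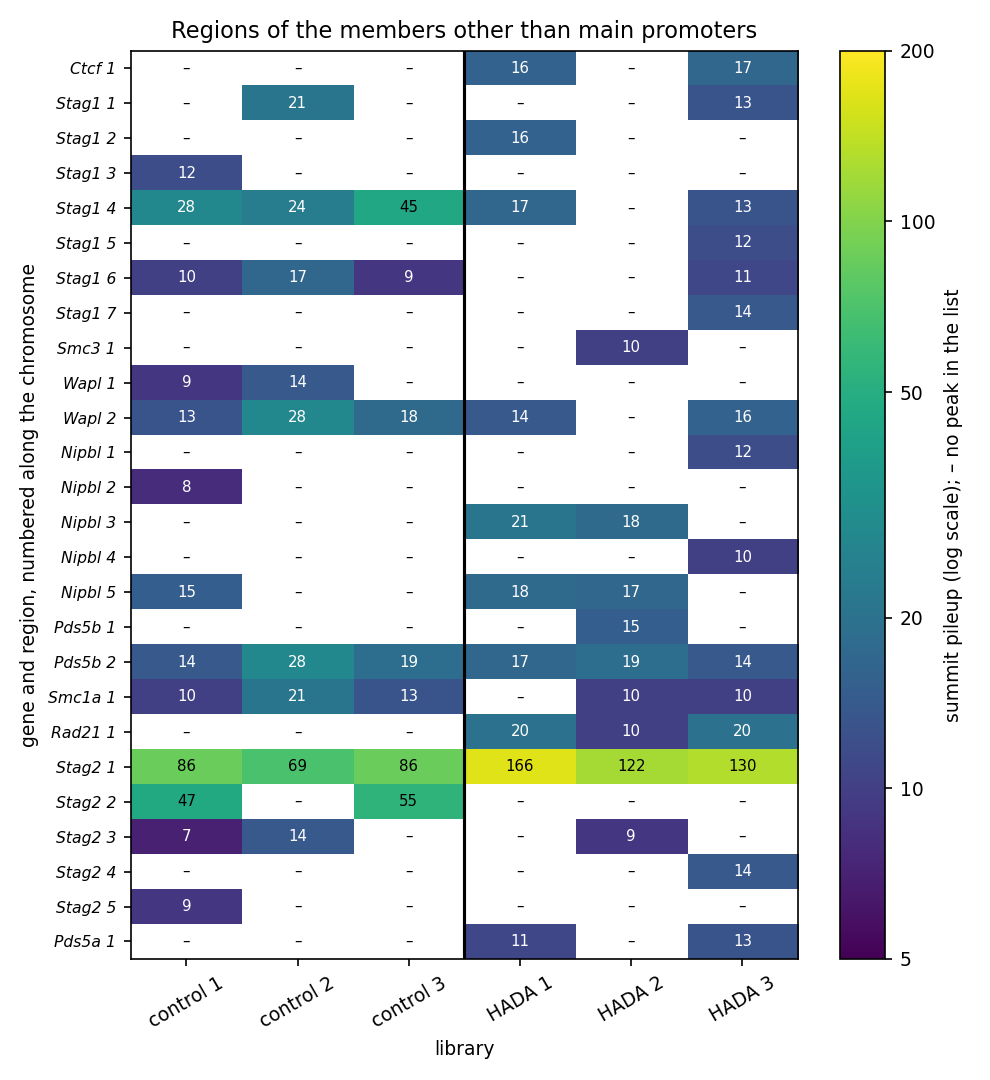
Summit pileup (colour on a log scale, and printed) of the 26 member regions other than main promoters in each library, with genes in the order of promoter height, regions numbered along the chromosome and a dash where the list has no peak. Most rows hold a few pileups below 30, while the second promoter region of Stag2 has 69 to 166 in every library.

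In 1 member region a peak was present in all HADA and no control library, and in none the reverse. Over all 62876 regions, 7.01% were HADA-only and 1.88% control-only. The region lies in an intron of Rad21 (chr15:51843575-51844214), with pileups of 20, 10 and 20. At the same height over background, a control library would have had a pileup of 13 to 15 and a −log10 p of 8.42 to 9.13, above the lowest of 3.16 to 3.27 in the control lists. The mean of 7.45 used for this comes from the HADA libraries by which the region was picked, and HADA 2 had 5.02. The comparison therefore cannot decide whether the controls lack the region. With a −log10 q of at least 5, or with the same number of peaks taken from each list, the region no longer counted as HADA-only, and the part of depth was not tested. The pileup of 10 in HADA 2 has an exact 95% Poisson interval of 4.80 to 18.4, for counting error only. The 201 bases around its summit (chr15:51843822-51844022, plus strand, CpG in capitals) are 43.3% G and C with 1 CpG, and so differ from the promoter sequences above.
Rad21 intron: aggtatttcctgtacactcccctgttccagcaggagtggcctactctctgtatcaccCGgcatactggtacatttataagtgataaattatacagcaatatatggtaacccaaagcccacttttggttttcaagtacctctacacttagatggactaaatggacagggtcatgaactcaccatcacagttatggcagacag

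The 1 member region that limma called lies in an intron of Pds5b near an annotated start (chr5:150725545-150727201). Its pileups were 14, 28 and 19 (control) and 17, 19 and 14 (HADA), and the centred difference was −0.87 ± 0.29 with a limma adjusted p of 0.045. The centred values of the groups overlapped, the summits were spread over 1086 bases, and the sequence at a summit has up to 871 copies in the genome, where reads cannot be placed on 1 copy. The 201 bases around its main summit (chr5:150725890-150726090, plus strand, CpG in capitals) are 32.3% G and C with 1 CpG.
Pds5b intron: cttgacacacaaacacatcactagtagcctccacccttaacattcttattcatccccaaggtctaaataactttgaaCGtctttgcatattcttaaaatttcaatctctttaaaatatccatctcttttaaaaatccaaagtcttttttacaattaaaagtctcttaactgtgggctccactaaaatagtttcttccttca
The call was absent in all but 1 of the fits without 1 library (without control 1), and absent over background.

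Other regions were chosen for mention after their values had been seen. Downstream of both Stag2 promoter regions, an intronic region near another annotated start (chrX:41240692-41241077) had pileups of 47 in control 1 and 55 in control 3 and no peak in control 2 or in any HADA library. These are the highest pileups among member regions that are missing from any list. Inside Stag1, a region in an exon annotated as untranslated (chr9:100747957-100748726) had pileups of 28, 24 and 45 in control and 17 and 13 in HADA 1 and HADA 3, with no peak in HADA 2. Over background this was 11.7 to 24.6 in control and 5.72 to 7.26 in the HADA libraries with a peak. In control 2, which lacked the Stag2 peak and had the lowest Stag1 pileup over background among the controls, the marker sums of neutrophils (175), T cells (184), monocytes (95.9), red cells and platelets (74.5) and pan-leukocyte genes (301) were all the lowest of the 3 control libraries, while those of B and NK cells were lowest in control 3. Control 2 also had the lowest height over background of the controls at every member main promoter except that of Pds5a. The parts of the cell mixture and of this lower height in these values were not tested. Inside Ctcf, an intronic region (chr8:106387455-106388244) had pileups of 16 in HADA 1 and 17 in HADA 3 and no peak in the other 4 libraries.

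The wider machinery was examined through a list of 33 other genes of cohesin loading, acetylation and cleavage, meiotic cohesin, condensin, SMC5/6, loop-associated factors and topoisomerase II. Of these, 29 had a promoter peak in all 6 libraries. Limma called 6 of the 29 higher and 2 lower in HADA, with a median difference of 0.05, where 20.1% and 12.2% of all shared promoter regions were called. The higher genes were Hdac8, which deacetylates SMC3 (0.97, adjusted p = 0.0093), Smc5 of the SMC5/6 complex (0.67, adjusted p = 0.0192), the condensin subunit genes Ncapg (0.66, adjusted p = 0.0373), Ncapg2 (0.59, adjusted p = 0.0328) and Ncaph2 (0.55, adjusted p = 0.0303), and Espl1, the separase that cuts RAD21 (0.47, adjusted p = 0.0464). The lower genes were the condensin genes Smc4 (−0.76, adjusted p = 0.0350) and Ncapd3 (−0.64, adjusted p = 0.0468). Hdac8 had 15.8 ± 3.92 over background in control and 39.4 ± 1.76 in HADA, and Smc5 had 28.0 ± 7.78 and 56.6 ± 4.0. Over background Smc4 had 189 ± 47.1 in control and 144 ± 21.8 in HADA, with overlapping groups, and Ncapd3 overlapped as well (118 to 187 and 107 to 153). The other condensin genes, Smc2 (−0.23, adjusted p = 0.341), Ncapd2 (0.05, adjusted p = 0.845) and Ncaph (0.39, adjusted p = 0.0981), were not called. The cohesin acetyltransferase genes Esco1 (−0.23, adjusted p = 0.446) and Esco2 (0.21, adjusted p = 0.357) and Mau2, the partner of NIPBL (−0.38, adjusted p = 0.148), were not called. The germ-cell paralogues Ctcfl and Smc1b and the meiotic kleisin gene Rad21l had no promoter peak in any library, and the meiotic kleisin gene Rec8 had one in 3 libraries.

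Regions with an exact match to the CTCF consensus, a part of the sites that the CTCF protein can bind, were looked up in the same fit. Of 87 shared regions with the CTCF consensus within 100 bases of the summit, 18 (20.7%) were called higher and 2 (2.30%) lower in HADA, with a median difference of 0.21, where 17.9% and 24.1% of all shared regions were called. The median centred log2 pileup of these regions was −0.77, −0.92 and −0.91 (control) and −0.50, −0.51 and −0.46 (HADA), so the groups were apart. Within 3 kb of a start, 10 of 54 regions (18.5%) were higher and 2 (3.70%) lower, against 20.1% and 12.2% of all shared promoter regions. Farther from starts, 8 of 33 (24.2%) were higher and 0 lower. Over all 9000 farther shared regions 14.2% were higher and 43.8% lower, with a median of −0.66 against 0.20 at the 33 with the consensus. Of all 540 regions with the consensus, 80 (14.8%) were HADA-only and 0 control-only, against 7.01% and 1.88% of all regions. Over background the calls were 37 higher and 0 lower, with 31.0% and 18.3% of all shared regions called. Centred on shared promoters they were 12 and 6, with 10.4% and 28.0% of all shared regions, and without HADA 2 they were 4 (4.60%) and 0, with 3.34% and 8.58%. The B cell, T cell and neutrophil marker sums given above are apart between the same libraries, and their part in this was not tested.

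The regions with the lowest p in each direction show what was compared, with the CTCF consensus in capitals and 15 bases on each side, read from GRCm39. The first lies 137 bases from the nearest coding start, that of Pals2, at chr6:50087064-50087105 (minus strand), and had pileups of 36, 34 and 33 (control) and 113, 86 and 91 (HADA). The second lies in Gsk3b at chr16:38060291-38060332 (minus strand), with 29, 19 and 13 (control) and 75, 68 and 85 (HADA). The third, among the lower ones, lies 14155 bases from the nearest coding start, that of Ninj1, at chr13:49326855-49326896 (minus strand), with 22, 30 and 36 (control) and 29, 25 and 25 (HADA). The fourth lies in Tcf7l1 at chr6:72613149-72613190 (plus strand), with 19, 18 and 19 (control) and 24, 14 and 21 (HADA).
Pals2 site: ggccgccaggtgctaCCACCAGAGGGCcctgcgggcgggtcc
Gsk3b site: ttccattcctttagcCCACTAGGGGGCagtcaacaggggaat
Ninj1 site: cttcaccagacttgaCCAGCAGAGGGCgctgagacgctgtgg
Tcf7l1 site: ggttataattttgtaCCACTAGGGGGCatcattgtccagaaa
The centred differences were 0.86 ± 0.16, 1.35 ± 0.25, −0.76 ± 0.25 and −0.59 ± 0.20, with limma adjusted p of 0.01, 0.0104, 0.0409 and 0.048. Both lower calls were lost with rank scores, over background, with the replicate block, without control 3 and without any single HADA library. The higher pair had non-overlapping pileups, while those of the lower pair overlapped between groups. Over background the Ninj1 region was 13.0 to 19.7 (control) and 11 to 12.6 (HADA), with all HADA libraries below the controls, and the Tcf7l1 region overlapped, at 8.76 to 11.3 (control) and 7.03 to 10.3 (HADA).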

How the data were processed

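Processed peak lists of 6 ATAC-seq libraries, 3 control and 3 HADA, were used, grouped by their labels. Per the submitters' processing notes, the authors used FastQC, Trimmomatic, Bowtie2, Picard and MACS2 on GRCm39. Their versions, the MACS2 options and any shift for Tn5 insertion are not given in the sources used here. The lists were called library by library. As deposited by the authors, the values of a peak are its fold enrichment (a linear ratio of the summit to the local level), 2 significance values (−log10 of the p-value and of the q-value) and a score derived from the latter. No read totals were used, so depth is the solved background pileup.

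Summit pileup and background were obtained by solving the fold and the Poisson p of a peak together, which returned the deposited p within 0.1% for 100% of peaks. Peaks sharing 1 bp were merged into regions, and genes came from GENCODE on GRCm39 (symbols of all 10 members and all 33 listed genes matched). A main promoter was the region within 3 kb of a start, present in all 6 libraries, with the highest mean pileup. Log2 pileups, centred on the median shared region, were compared with limma 3.58.1 in R 4.3.3, Benjamini-Hochberg adjusted over 23970 shared regions and called at 0.05. For single values per library, group means were tested by exact permutation, two-sided, where the smallest p with 3 against 3 libraries is 0.1. Nothing in the labels says that libraries came from separate mice, so p-values measure the spread between libraries, which may be technical. Peak sequences were read from GRCm39 with Python 3.11.15. By the naming rule, all 10 members were named, other member regions where called or group-only, and listed genes where called. Named outside it, after their values were seen, were the second Stag2 promoter region, an intronic region each of Stag2 and Ctcf, a Stag1 region, Esco1, Esco2, Mau2, Smc2, Ncapd2, Ncaph, the listed genes without a peak and the CTCF-motif regions. The members and lists were chosen with earlier results of these data known. Alternatives were other scalings, rank scores, stricter thresholds, another overlap, a replicate block and leaving out each library.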

Additional observations from a re-analysis of the deposited data

How the results depend on the processing

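No member region was called higher in HADA under any setting. The count of lower member regions, 1, became 0 with rank scores of the fold, over background, with a −log10 q of at least 5 or with quantile normalization, became 3 when centred on shared promoters, and ranged from 0 to 1 without single libraries. Centring on shared promoters and quantile normalization were chosen after seeing the data. The former also brought Smc1a (−0.51) and Wapl (−0.62) past the threshold. Signs turned over background for Ctcf (0.22), Rad21 (0.14), Smc1a (0.013), Smc3 (0.10), Stag2 (0.32) and Nipbl (0.14), with rank scores for Stag1 (−0.24) and Stag2 (0.042), centred on shared promoters for Stag1 (−0.037), and with quantile normalization for Ctcf (0.15). Without single libraries the difference of Stag2 ranged from −0.14 to 0.095, and it was positive without control 3 (0.095) and without HADA 2 (0.023). Other promoters kept their sign, with sizes that moved as follows: without control 3 Ctcf was −0.0047, Rad21 −0.038, Nipbl −0.089, Smc3 −0.14, Wapl −0.32 and Stag1 0.21, and without control 2 Ctcf was −0.30, Rad21 −0.42, Stag1 0.035 and Pds5b 0.071, without HADA 2 Pds5a was 0.34, and without HADA 1 Smc1a was −0.45. CTCF-motif regions called higher, 18, became 9 with rank scores and 37 over background, and ranged from 4 (without HADA 2) to 24 without single libraries. Those called lower, 2, became 0 with rank scores, over background or with the replicate block, 6 when centred on shared promoters and 1 with quantile normalization, and ranged from 0 to 2 without single libraries. HADA-only member regions, 1, became 0 with a −log10 q of at least 5 or 10 or with equal numbers of peaks, and ranged from 1 to 3 without single libraries. Control-only member regions, 0, became 1 with a −log10 q of at least 10 or with equal numbers of peaks, and ranged from 0 to 1 without single libraries. The difference in member peaks per 10000, −0.23, ranged from −0.58 to 0.18 without single libraries, and turned positive without control 1 (0.18). It was −0.86 with a −log10 q of at least 5, −1.58 with at least 10, −0.78 with equal numbers of peaks and −0.61 within 3 kb of a start. The causes were not tested. Replicate numbers are not known to pair the libraries. Correlations of deviations were −0.08, 0.08 and −0.38 for equal numbers and −0.47 to 0.49 for unequal numbers. With 3 libraries per group they cannot decide whether equal numbers belong together. With the replicate block the calls over all shared regions were 2991 higher and 5660 lower, with 0 higher and 1 lower among members.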
